A study of Mus musculus with 2 samples.

Results

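The 9 genes described here, Snap25, Stx1a, Vamp2, Cplx2, Cadps, Syt7, Syt13, Rab3a and Rab3c, encode parts of the machinery that releases hormone granules on a calcium signal. They were chosen by name with earlier results of these data known, 9 of the 31055 genes counted, and followed across 5 classes of mouse crypt cells that were set by other genes. The cells came from the small-intestinal crypts of a ChgaCreER-tdTomato::Rosa26LSL-eYFP mouse. This animal carries a tamoxifen-inducible Cre and tdTomato in the Chga locus, which encodes chromogranin A, a protein of hormone granules. Its Rosa26 reporter turns eYFP on after recombination, and the progeny of a recombined cell keep it. It received 1 mg of tamoxifen by injection on each of 5 days. An eYFP-positive sort and a bulk epithelial sort were tagged with hashtag antibodies and run together, so both share 1 gene expression library. All 2335 cell barcodes of that library also had hashtag counts. All classes share this genotype and treatment, and which hashtag marked which sort could not be told from the labels.

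The classes were set by counts of unique transcript molecules (UMIs). Enterochromaffin cells, which make serotonin, held at least 5 UMIs of Tph1, whose enzyme starts serotonin synthesis (347 cells, median 12503 UMIs). Peptide hormone cells held fewer than 5 Tph1 UMIs and at least 0.5% of their UMIs from Gcg, Cck, Gip, Ghrl, Sst, Nts and Pyy together (75 cells, 12924). Neurog3 cells held at least 3 UMIs of this endocrine progenitor factor (47 cells, 13729). Goblet cells held at least 0.5% of their UMIs from Agr2, Fcgbp and Muc2 (129 cells, 21042). Lgr5 cells held at least 3 UMIs of this stem cell gene (497 cells, 24495). A cell could meet several rules: 1010 of the 2335 cells met at least 1 and 81 met more than 1, among them 29 enterochromaffin and Lgr5 cells, 23 enterochromaffin and Neurog3 cells and 13 enterochromaffin and goblet cells. Values for cells that met a single rule are therefore given beside those of whole classes.

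Total UMIs per cell ran from 1002 to 129719 with a median of 19078. Markers that the rules did not use were checked in each class: 8 of 8 enterochromaffin, 8 of 8 peptide hormone, 7 of 8 progenitor and 8 of 8 goblet markers reached at least 2 times their level over all cells, and 2 of 8 stem markers did. By the other measure, the class with the highest level, 7 of 8 enterochromaffin, 7 of 8 peptide hormone, 4 of 8 progenitor, 8 of 8 goblet and 8 of 8 stem markers were highest in their own class. The progenitor markers Neurod1 (485 CPM in enterochromaffin against 319 in Neurog3 cells) and Rfx6 (143 in peptide hormone against 84.3) were higher elsewhere. Paneth markers were higher in goblet and Lgr5 cells than in the other 3 classes (summed levels of 12981 and 16682 UMIs per 1000000, CPM, against 549 to 889). Defa24, the most abundant of them, was at 7941 CPM in goblet and 13125 in Lgr5 cells, against 10103 over all cells. The part of Paneth markers in the results was not tested. The labels name 1 mouse, yet 1744 cells held at least 3 Xist UMIs with no Y-linked UMI, 252 held Y-linked UMIs with at most 2 of Xist, and 339 met neither description. These are called Xist-bearing and Y-bearing cells below, and the contrast of the 2 endocrine classes is given within each. Y-bearing cells made up 83 of 347 enterochromaffin and 20 of 75 peptide hormone cells but 26 of 497 Lgr5 cells, so contrasts with Lgr5 cells also differ in this makeup. Within Xist-bearing cells, the log2 ratio of enterochromaffin to Lgr5 cells ran from 1.63 for Rab3a to 5.28 for Rab3c, and that of peptide hormone to Lgr5 cells from 0.89 for Rab3c to 4.93 for Cadps. There is 1 library, so cells are not replicates and no p-value was computed. Intervals are exact 95% Poisson intervals for summed UMIs and exact (Clopper-Pearson) binomial intervals for shares, and they cover counting error only.

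Hormone granules of enteroendocrine cells fuse with the plasma membrane when calcium enters. Fusion is driven by SNARE proteins, of which Vamp2 sits on the granule and Snap25 and Stx1a on the plasma membrane, while complexins such as Cplx2 hold and release the assembled complex. Cadps (also known as CAPS1) primes dense-core granules, synaptotagmins such as Syt7 sense calcium, and Rab3 GTPases on the granule surface steer docking. The same proteins are best known from neurons and chromaffin cells, and goblet cells also release stored granules.

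All 9 genes were higher in enterochromaffin than in Lgr5 cells. A gene counted as higher when its log2 ratio, with 1 CPM added to both levels, was at least 1, its intervals did not overlap and it had at least 20 UMIs in the pair of classes; 17.7% of the 12432 genes measured in this contrast did. For peptide hormone against Lgr5 cells, 8 of 9 were higher (10.9% of all genes), with Rab3c the exception. For Neurog3 against Lgr5 cells, 8 of 9 were higher (9.33% of all genes), with Rab3a the exception. For goblet against Lgr5 cells, Snap25, Syt7 and Syt13 were higher (3 of 9; 7.83% of all genes). Between the 2 endocrine classes, Rab3c and Snap25 were higher in enterochromaffin cells (2 of 9; 5.65% of all genes) and Syt7 was higher in peptide hormone cells (1 of 9; 2.38% of all genes). These contrasts share the Lgr5 or the endocrine cells and are not independent of each other. Because the 9 genes were chosen with earlier results known, the shares over all genes are a reference and not a test.

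**Figure D1:**
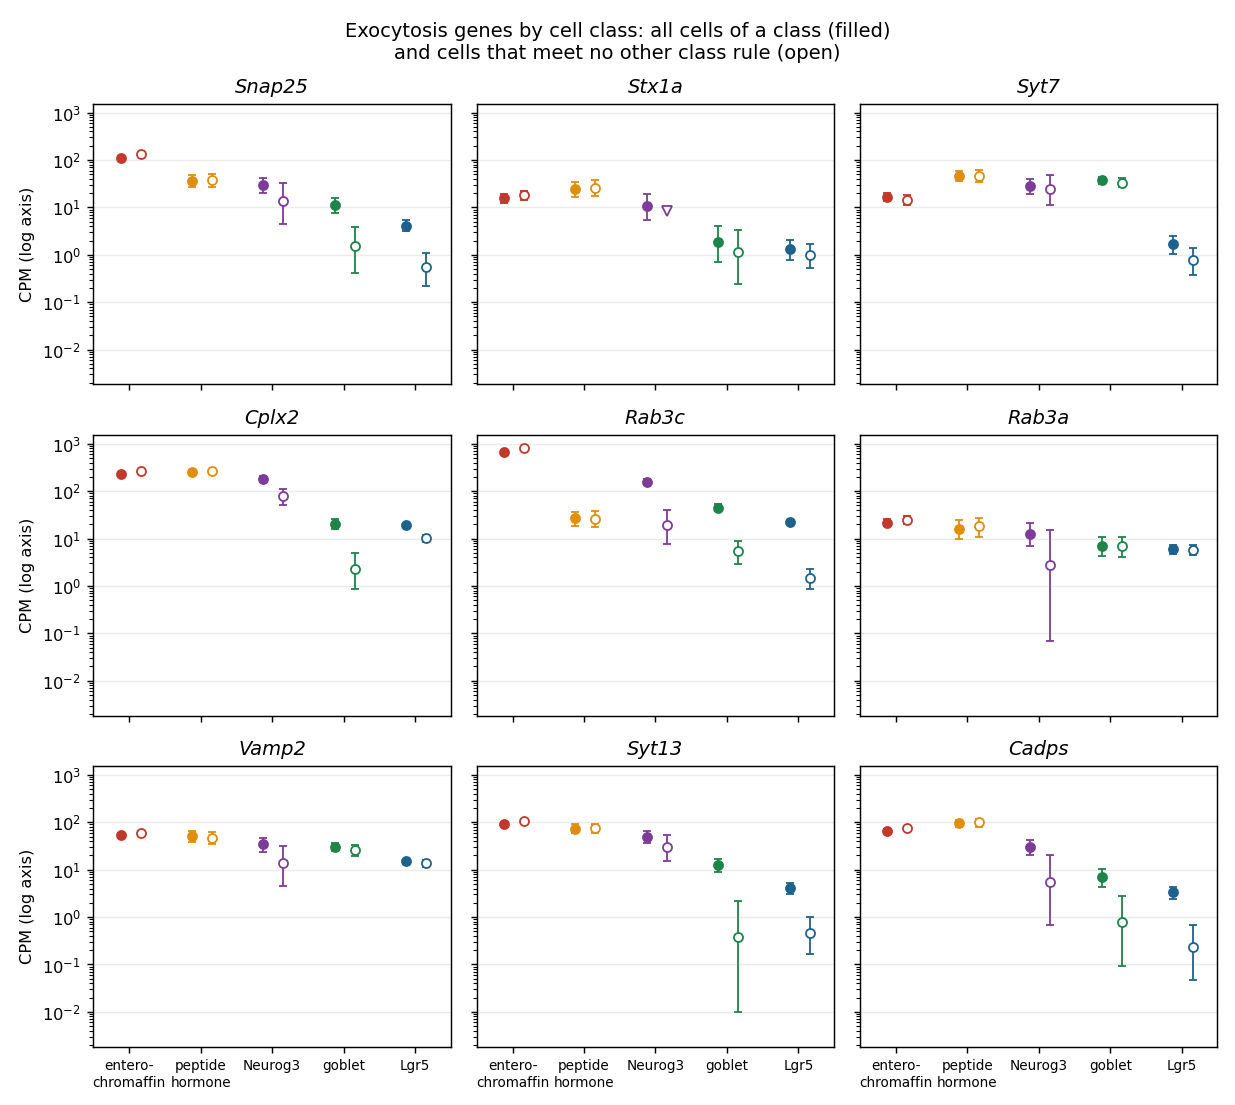
Level of each gene in CPM (log axis) in the 5 cell classes, from UMIs summed over cells, with exact 95% Poisson intervals. Filled points are whole classes and open points are cells that met no other class rule; the open triangle stands at the limit that 0 UMIs allow (3 counts). Rab3c stands at 673 CPM in enterochromaffin and 26.7 CPM in peptide hormone cells, Syt7 stays near its goblet level of 37.5 CPM when only single-rule cells are kept, and Snap25, Syt13 and Cadps drop below 1 CPM in single-rule Lgr5 cells.

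Cells that met only the Lgr5 rule held far less Snap25, Rab3c, Syt13 and Cadps than the whole Lgr5 class, whereas Vamp2, Rab3a and Stx1a differed little. The 29 Lgr5 cells that were also enterochromaffin carried 297 of the 319 Rab3c UMIs and 50 of the 60 Snap25 UMIs of the Lgr5 class, and 79.3% of them had a doublet score in the top 6% of all cells. So did 22.8% of all enterochromaffin and 8.05% of all Lgr5 cells. Whether the 29 cells are doublets was not tested. In the 458 cells that met only the Lgr5 rule, Cadps was found with 3 UMIs (0.232 CPM, 0.0477 to 0.677), Syt13 with 6 (0.463 CPM) and Snap25 with 7 (0.540 CPM). Cplx2 (10.03 CPM), Vamp2 (13.5 CPM) and Rab3a (5.79 CPM) kept the highest levels there. With single-rule cells in both classes, 9 of 9 genes were higher in enterochromaffin cells (20% of all genes) and 0 lower (7.03%), and 9 of 9 were higher in peptide hormone cells (11.8%) and 0 lower (3.55%), so that Rab3c then also passed in the latter, at 26.1 against 1.47 CPM. In single-rule Neurog3 cells, 14 in number, 2 of 9 were higher, Cplx2 and Rab3c (6.42% of all genes), and 0 lower (2.63%). Syt13 (log2 ratio 4.42), Syt7 (3.87) and Snap25 (3.26) also had intervals apart there but held fewer than 20 UMIs in the pair. Stx1a and Cadps fell below that minimum too, with overlapping intervals. In single-rule goblet cells 2 of 9 were higher, Syt7 and Rab3c (7.57%), and Rab3c stood at 5.40 against 1.47 CPM. The goblet value rested on 14 UMIs among 2592185, and the peptide hormone value on 29 among 1111308. Cells with lymphocyte genes, defined below, held 10 Rab3c UMIs among 561310, a higher level than in single-rule goblet cells. Between single-rule cells of the endocrine classes, Rab3c and Snap25 again passed toward enterochromaffin cells (6.41% of all genes) and Syt7 toward peptide hormone cells (2.46%).

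Promoter sequences from RefSeq (GRCm38.p6) were found for 5 of the 9 genes, as 6 windows of the 250 bases before a transcript start: Stx1a, Cplx2, Rab3c, Cadps and both starts listed for Rab3a. They are shown because each of these genes was higher in enterochromaffin than in Lgr5 cells, while the close relatives Rab3a and Rab3c differed in how sharply. Each was searched on both strands for 9 motifs: the E-boxes CAGCTG and CAGATG, which basic helix-loop-helix factors such as Neurog3 and Neurod1 can bind, the cAMP response element TGACGTCA and its shorter form TGACG, the full RE1 element of the neuronal repressor REST and its left and right parts CAGCACC and GGACAG, the GC box GGGCGG and the TATA box TATAAA. The shorter motifs lie inside the whole ones, and CAGCTG reads the same on both strands. CAGCTG was in 4 of the 6 windows, 1 each of Stx1a, Cplx2, Rab3c and Rab3a, against 13.0% of 32851 RefSeq windows of that length; it is in capitals below.
Rab3c, chr13:110280207-110280456, minus strand: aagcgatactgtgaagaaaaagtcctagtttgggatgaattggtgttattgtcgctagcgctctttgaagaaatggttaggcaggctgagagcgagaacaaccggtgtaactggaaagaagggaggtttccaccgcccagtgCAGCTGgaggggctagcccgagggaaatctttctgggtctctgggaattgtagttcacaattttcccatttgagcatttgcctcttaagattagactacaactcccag
Rab3a, downstream start, chr8:70754852-70755101, plus strand: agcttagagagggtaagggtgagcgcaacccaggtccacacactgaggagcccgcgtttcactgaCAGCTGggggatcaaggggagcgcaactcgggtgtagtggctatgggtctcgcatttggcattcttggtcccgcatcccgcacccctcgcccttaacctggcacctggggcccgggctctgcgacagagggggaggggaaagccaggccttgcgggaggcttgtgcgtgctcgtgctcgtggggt
Cplx2, chr13:54302306-54302555, plus strand: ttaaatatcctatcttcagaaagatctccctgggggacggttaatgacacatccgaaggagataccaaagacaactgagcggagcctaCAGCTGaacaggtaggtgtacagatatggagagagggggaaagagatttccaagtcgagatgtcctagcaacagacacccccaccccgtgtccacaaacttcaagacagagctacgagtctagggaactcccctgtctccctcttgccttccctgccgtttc
Stx1a, chr5:135023232-135023481, plus strand: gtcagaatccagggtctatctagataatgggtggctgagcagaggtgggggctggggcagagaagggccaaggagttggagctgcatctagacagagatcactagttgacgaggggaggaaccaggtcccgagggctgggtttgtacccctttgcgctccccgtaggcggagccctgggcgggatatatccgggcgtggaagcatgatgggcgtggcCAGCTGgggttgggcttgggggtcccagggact

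The motif began 108 bases before the start in Rab3c, 185 in Rab3a, 162 in Cplx2 and 33 in Stx1a. The window of the upstream Rab3a start and that of Cadps did not hold these letters and are not printed. CAGATG (in 14.4% of all windows), TGACGTCA (1.55%), CAGCACC (5.73%), TATAAA (12.4%) and the full RE1 element (0.0335%) were in none of the 6. TGACG was in the Stx1a window and the upstream Rab3a window (17.8% of all windows), GGACAG in the Cadps window (18.7%), and GGGCGG in the Stx1a, Rab3c and upstream Rab3a windows (32.7%). GC content was 47.6% in the Rab3c and 50.8% in the Cplx2 window, below the median of 52.4% over all windows, and 58.0 to 64.4% in the other 4. A match is a run of letters and not a measured binding site.

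Of the Rab3 GTPases, Rab3c had the highest level in enterochromaffin cells and differed most between the 2 endocrine classes. It was found at 673 CPM (653 to 693; 4311 UMIs) in enterochromaffin cells, 159 (136 to 184) in Neurog3 cells, 44.4 (37.4 to 52.4) in goblet cells, 26.7 (18.6 to 37.1) in peptide hormone cells and 22.1 (19.7 to 24.6) in Lgr5 cells. The last 2 classes had overlapping intervals, and every other step in this order was apart. In single-rule cells the lower classes changed places: peptide hormone cells stood at 26.1 CPM (29 UMIs), Neurog3 cells at 19.3 (7 UMIs), goblet cells at 5.40 (14 UMIs) and Lgr5 cells at 1.47 (19 UMIs), and the Neurog3 interval (7.77 to 39.8) overlapped those of peptide hormone and goblet cells. The level in enterochromaffin cells was 30.5 times that in Lgr5 cells (27.2 to 34.2), a log2 ratio of 4.87 that ranked 7 of 12432 genes. Between single-rule cells, at 806 against 1.47 CPM, the log2 ratio was 8.35 and the fold lay between 351 and 914, so the size of this difference depended on whether cells of several classes were kept. It was 25.2 times that in peptide hormone cells (18.1 to 36.3; log2 ratio 4.61, rank 33 of 11465). A median enterochromaffin cell held 10 Rab3c UMIs and the highest held 63, and 96.0% held at least 1, whereas a median cell of the peptide hormone, goblet and Lgr5 classes held 0. The contrast between the endocrine classes held in Xist-bearing cells (627 against 29.0 CPM, log2 ratio 4.39) and in Y-bearing cells (816 against 10.9 CPM, 6.10). Within both kinds the same 2 genes passed toward enterochromaffin cells, Rab3c and Snap25 (4.68% and 7.26% of all genes), and Syt7 toward peptide hormone cells (2.14% and 2.31%).

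Within the endocrine classes Rab3c was uneven. Of the 35 Rab3c UMIs in peptide hormone cells, 65.7% lay in 5 cells. Cells in which Ghrl, the gene of ghrelin, was the leading hormone held 110.4 CPM (69.98 to 166; 10 cells), those led by Cck held 18.6 (8.94 to 34.3; 32 cells) and those led by Gip held 1 UMI in 25 cells (2.40 CPM, 0.0608 to 13.4). The Ghrl-led interval was apart from the others, while Cck and Gip overlapped. Chga followed the same order, at 672, 186 and 72.05 CPM. Among enterochromaffin cells, those with at least 5 UMIs of Afp held 843 CPM of Rab3c and the others 468, a log2 ratio of 0.85 with intervals apart. Snap25 (0.67) and Syt13 (0.40) also had intervals apart in this direction, and Cplx2 (-0.32) in the other. In this split 0 of 9 genes passed in either direction (1.77% of all genes higher, 0.897% lower).

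Rab3a, the best studied member of this family at synapses, was nearly flat beside its relative. It stood at 21.7 CPM (18.2 to 25.6) in enterochromaffin, 16.0 (9.90 to 24.5) in peptide hormone, 12.5 (6.86 to 21.1) in Neurog3, 6.98 (4.38 to 10.6) in goblet and 6.02 (4.82 to 7.43) in Lgr5 cells, and each class overlapped the next in this order. Enterochromaffin cells held 3.60 times the Lgr5 level (2.73 to 4.76) and peptide hormone cells 2.66 times (1.57 to 4.32). The other 2 genes of the family differed again. Rab3b was found at 80.8 CPM in enterochromaffin against 13.7 in peptide hormone cells (log2 ratio 2.48), the same direction as Rab3c. In Lgr5 cells Rab3b was at 2.77 CPM. Its log2 ratio of enterochromaffin to Lgr5 cells was 4.44, close to the 4.87 of Rab3c. Rab3d, known from exocrine granules, was at 89.9 and 74.7 CPM in the endocrine classes, and reached 130 CPM in goblet against 26.7 in Lgr5 cells (log2 ratio 2.24).

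Syt7, a calcium sensor of high affinity, had another order from the rest. It was found at 46.5 CPM (35.5 to 59.7) in peptide hormone, 37.5 (31.0 to 44.9) in goblet, 27.8 (18.9 to 39.4) in Neurog3, 16.7 (13.7 to 20.2) in enterochromaffin and 1.66 (1.06 to 2.47) in Lgr5 cells. Neighbouring classes overlapped except for the last step, from enterochromaffin to Lgr5 cells. Goblet cells held 22.5 times the Lgr5 level (14.4 to 36.6; log2 ratio 3.85, rank 57 of 11780). In the 107 cells that met only the goblet rule, Syt7 was found in 45.8% of cells and at 33.2 CPM, against 0.772 in single-rule Lgr5 cells. Peptide hormone cells exceeded enterochromaffin cells 2.78 times (1.998 to 3.85; log2 ratio 1.42), and the reverse ratio was -1.55 in Xist-bearing and -1.63 in Y-bearing cells. By leading hormone, Syt7 was 67.2 CPM (44.7 to 97.2) in Gip-led, 62.4 (33.2 to 107) in Ghrl-led and 22.4 (11.6 to 39.1) in Cck-led cells, of which Gip and Cck were apart. In enterochromaffin cells 28.0% of its UMIs lay in 5 cells.

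Syt13, an atypical synaptotagmin, followed the endocrine pattern without the goblet signal. Its levels were 90.2 CPM (83.0 to 97.8) in enterochromaffin, 73.9 (59.9 to 90.1) in peptide hormone, 49.3 (37.1 to 64.2) in Neurog3, 12.4 (8.80 to 16.9) in goblet and 4.02 (3.05 to 5.19) in Lgr5 cells. The first 3 classes each overlapped the next, and they were apart from goblet cells. In goblet cells 51.3% of its UMIs lay in 5 cells, and in single-rule goblet cells 1 UMI remained, at 0.386 CPM (0.00977 to 2.15) against 0.463 in single-rule Lgr5 cells. The goblet call of Syt13 was thus lost with cells of several classes left out (log2 ratio -0.08).

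The SNAREs of the plasma membrane split. Snap25 was found at 111 CPM (103 to 119) in enterochromaffin, 36.6 (27.0 to 48.5) in peptide hormone, 29.6 (20.4 to 41.5) in Neurog3, 11.1 (7.74 to 15.4) in goblet and 4.15 (3.17 to 5.35) in Lgr5 cells. Enterochromaffin cells stood above peptide hormone cells 3.03 times (2.26 to 4.15), with log2 ratios of 1.35 in Xist-bearing and 1.94 in Y-bearing cells. Stx1a, its partner in the SNARE complex, had its highest level in peptide hormone cells, at 24.4 CPM (16.7 to 34.4) against 15.4 (12.6 to 18.8) in enterochromaffin, 10.8 (5.56 to 18.8) in Neurog3, 1.90 (0.699 to 4.15) in goblet and 1.32 (0.792 to 2.05) in Lgr5 cells. The 2 endocrine classes overlapped in Stx1a, with a ratio of 0.634 (0.422 to 0.976). Of the goblet Snap25 UMIs 65.7% lay in 5 cells, and single-rule goblet cells held 4 UMIs (1.54 CPM).

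Vamp2, the granule SNARE, was found in every class. It was at 52.7 CPM (47.3 to 58.7) in enterochromaffin, 50.3 (38.9 to 64.0) in peptide hormone, 34.1 (24.1 to 46.8) in Neurog3, 30.2 (24.4 to 36.9) in goblet and 15.0 (13.0 to 17.1) in Lgr5 cells. Enterochromaffin over peptide hormone cells gave a ratio of 1.05 (0.804 to 1.39), and enterochromaffin over Lgr5 cells 3.53 (2.96 to 4.203), close to the 3.60 of Rab3a. Single-rule enterochromaffin and Lgr5 cells held 58.3 and 13.5 CPM (log2 ratio 2.03). Cells with lymphocyte genes, 126 cells with at least 3 UMIs of Cd79a, Cd79b, Cd3e and Cd3g and no class rule, held 30.3 CPM of Vamp2 (17.6 to 48.5), above the Lgr5 level.

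Cplx2, the complexin, was high in all 3 endocrine classes. It stood at 249 CPM (223 to 278) in peptide hormone, 233 (221 to 245) in enterochromaffin and 177 (154 to 204) in Neurog3 cells, against 20.3 (15.6 to 25.9) in goblet and 19.3 (17.1 to 21.7) in Lgr5 cells. It was found in 92.5% of enterochromaffin, 89.3% of peptide hormone and 91.5% of Neurog3 cells. The ratio of enterochromaffin to peptide hormone cells was 0.934 (0.828 to 1.06). In single-rule cells Cplx2 was lower in goblet than in Lgr5 cells, at 2.31 against 10.03 CPM (log2 ratio -1.73), where 6.37% of all genes were lower. Cplx1, a relative, was higher in enterochromaffin than in peptide hormone cells, at 35.1 against 7.62 CPM (log2 ratio 2.07).

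Cadps was the second gene, beside Syt7, whose interval in peptide hormone cells lay above that in enterochromaffin cells, at 94.5 CPM (78.6 to 113) against 66.8 (60.6 to 73.4), but the log2 ratio of -0.49 did not reach the threshold. In Xist-bearing cells it was -0.80 with intervals apart. The order turned in Y-bearing cells, at 89.2 against 96.3 CPM (log2 ratio 0.11), and the intervals overlapped there and in single-rule cells (99.0 against 76.2 CPM). Neurog3 cells held 29.6 CPM (20.4 to 41.5), goblet cells 6.98 (4.38 to 10.6) and Lgr5 cells 3.32 (2.45 to 4.41). Cck-led cells held 132 CPM (103 to 167) and Gip-led cells 64.8 (42.7 to 94.3), with intervals apart, and Ghrl-led cells 81.6 (47.5 to 131).

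**Figure D2:**
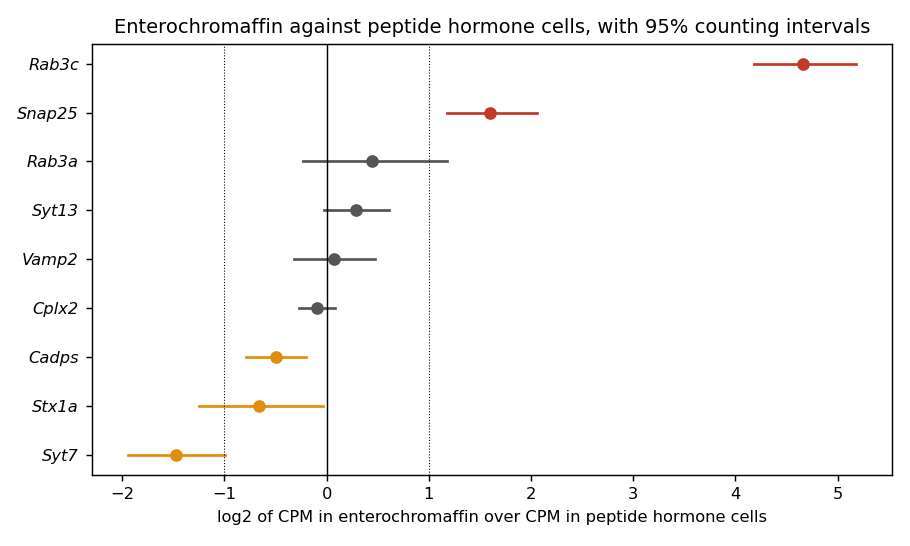
Ratio of each gene's level in enterochromaffin cells to that in peptide hormone cells, on a log2 axis with no pseudocount; points are ratios of CPM and bars exact 95% counting intervals, with dotted lines at a 2-fold difference. Rab3c (25.2 times) and Snap25 (3.03 times) lie to the right, Syt7 (0.359 times) to the left, and the intervals of Rab3a, Syt13, Vamp2 and Cplx2 include equality.

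The summed level of the 9 genes was 1280 CPM in enterochromaffin, 617.8 in peptide hormone, 530 in Neurog3, 172 in goblet and 76.8 in Lgr5 cells. Rab3c made up 52.6% of these UMIs in enterochromaffin cells (51.5 to 53.6%) and 4.32% in peptide hormone cells (3.02 to 5.95%). Cplx2 made up 18.2% and 40.3%, Cadps 5.22% and 15.3%, and Syt7 1.30% and 7.52%. The endocrine classes thus held the same 9 transcripts in different proportions. The large Rab3c share in enterochromaffin cells lowers every other share there. Cplx2 itself stood at nearly equal levels, 233 CPM in enterochromaffin and 249 in peptide hormone cells.

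Shares of cells with a UMI were compared after thinning each cell to 2000 UMIs. This left 344 enterochromaffin, 71 peptide hormone, 47 Neurog3, 124 goblet, 495 Lgr5 and 103 lymphocyte cells and dropped 3, 4, 0, 5, 2 and 23. Rab3c was found in 68.0% of enterochromaffin cells (62.8 to 72.9%), 29.8% of Neurog3, 8.06% of goblet, 7.04% of peptide hormone (2.33 to 15.7%) and 1.82% of Lgr5 cells. Lymphocytes, whose median depth was 2782 UMIs, held a Rab3c UMI in 3.88% of cells (1.07 to 9.65%), so the peptide hormone and goblet shares were not above that level beyond counting error. Cplx2 was found in 46.5% of peptide hormone, 40.1% of enterochromaffin, 29.8% of Neurog3, 4.03% of goblet and 3.03% of Lgr5 cells, and in 0 of 103 lymphocytes (upper bound 3.52%). Snap25, Stx1a, Syt7, Syt13 and Cadps were likewise found in 0 of 103 thinned lymphocytes. Vamp2 was in 6.80% of lymphocytes (2.78 to 13.5%) and 10.2% of enterochromaffin cells (7.19 to 13.9%), which overlapped. Its goblet (4.03%) and Lgr5 (2.42%) shares were lower, with intervals that also overlapped that of lymphocytes. Rab3a shares, 0.806 to 5.63% over the 5 classes, overlapped that of lymphocytes (1.94%, 0.236 to 6.84%).

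**Figure D3:**
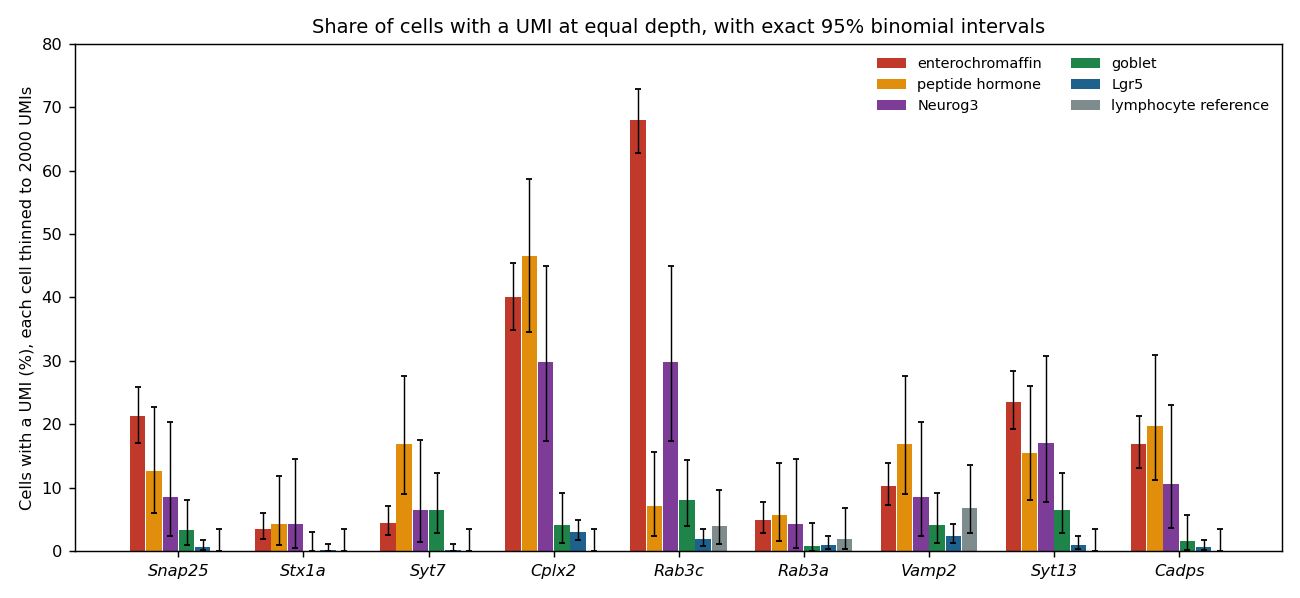
Percentage of cells with at least 1 UMI of each gene after every cell was thinned to 2000 UMIs, by class and in lymphocytes, with exact 95% binomial intervals. Rab3c is found in 68.0% of enterochromaffin and 7.04% of peptide hormone cells, Cplx2 in 40.1% and 46.5%, and Vamp2 and Rab3a differ little from the grey lymphocyte bars.

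Counting how many of the 9 genes a thinned cell held gave a mean of 1.93 in enterochromaffin, 1.45 in peptide hormone, 1.19 in Neurog3, 0.347 in goblet, 0.109 in Lgr5 and 0.126 in lymphocyte cells. At least 3 of the 9 were found in 31.7% of enterochromaffin (26.8 to 36.9%), 21.1% of peptide hormone (12.3 to 32.4%), 1.61% of goblet and 0.606% of Lgr5 cells. None of the 456 thinned single-rule Lgr5 cells held 3 or more. At 5000 UMIs per cell the means were 3.24, 2.63, 2.23, 0.757 and 0.267 from enterochromaffin to Lgr5 cells.

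Chga, abundant in enterochromaffin cells, was also counted in other cells: single-rule Lgr5 cells held 21.8 CPM and lymphocytes 67.7 CPM of it, against 8636 in enterochromaffin cells. Per 1000 Chga UMIs, enterochromaffin cells held 77.9 UMIs of Rab3c (75.5 to 80.3), and single-rule Lgr5 cells 67.1 (39.8 to 107) and single-rule goblet cells 97.2 (51.8 to 168), both intervals including the enterochromaffin value. Cplx2 stood at 26.9 per 1000 Chga UMIs in enterochromaffin and 459 (370 to 567) in single-rule Lgr5 cells. Syt7 stood at 1.93 in enterochromaffin and 597 (452 to 785) in single-rule goblet cells, and Vamp2 at 6.11 and 458 (337 to 617). In single-rule Lgr5 cells the intervals of Snap25 (24.7, 9.85 to 51.6), Syt13 (21.2, 7.72 to 46.7) and Cadps (10.6, 2.17 to 31.3) also included the enterochromaffin values of 12.8, 10.4 and 7.73, on 3 to 7 UMIs each. In single-rule goblet cells the Cplx2 value of 41.7 (15.0 to 92.9) included the enterochromaffin one. Rab3c stood above its enterochromaffin proportion in peptide hormone cells (121, 82.4 to 172) and in lymphocytes (263, 117 to 538, from 10 UMIs). These intervals are wide, and the source of the counts was not tested.

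The Neurog3 class was not uniform. Of its 47 cells, 25 also met an endocrine rule (23 enterochromaffin and 2 peptide hormone) and 22 met neither. Rab3c was at 383 CPM in the former and 13.3 in the latter, Cplx2 at 342 and 70.9, Snap25 at 61.5 and 8.87, Cadps at 66.1 and 5.91, Vamp2 at 63.8 and 14.8, and Syt13 at 75.2 and 32.5. These 6 of 9 genes were higher in the cells with an endocrine rule (7.38% of all genes) and 0 were lower (2.01%). Syt7 had overlapping intervals, at 36.5 (16 UMIs) and 22.2 CPM (15 UMIs), and Stx1a and Rab3a were too sparse to call. The 22 cells that met neither rule were still above single-rule Lgr5 cells in Syt13 (32.5 against 0.463 CPM), Syt7 (22.2 against 0.772), Cplx2 (70.9 against 10.03) and Rab3c (13.3 against 1.47), 4 of 9 where 5.36% of all genes were higher, and 0 were lower (1.64%). Their Rab3c level rested on 9 UMIs among 676720, and lymphocytes held 10 among 561310. Vamp2 (14.8 against 13.5 CPM) and Rab3a (2.96 against 5.79) overlapped.

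**Figure D4:**
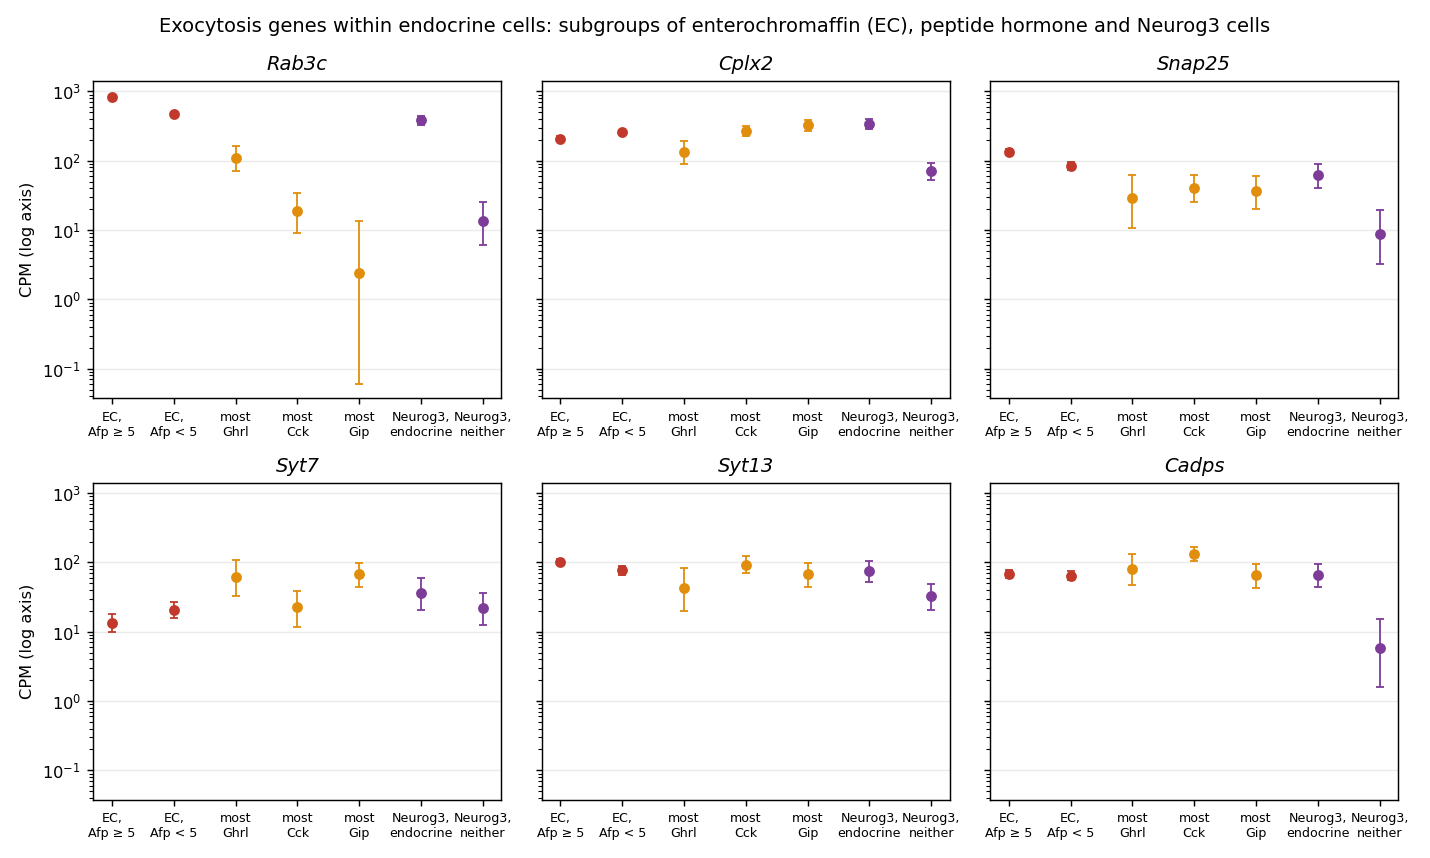
Level in CPM (log axis, exact 95% Poisson intervals) of 6 genes in enterochromaffin (EC) cells by Afp UMIs, peptide hormone cells by leading hormone, and Neurog3 cells that also met an endocrine rule ("endocrine") or met neither ("neither"). Rab3c spans 2.40 CPM in Gip-led to 843 CPM in Afp-high enterochromaffin cells, while Cplx2 stays between 134 and 342 CPM in all groups but the last, where it is 70.9 CPM.

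Levels were also compared by reporter transcript. Between enterochromaffin cells with at least 3 YFP UMIs (162 cells) and with 0 (58 cells), 0 of 9 genes passed in either direction (0.787% of all genes higher, 0.55% lower), and Rab3c, at 744 and 580 CPM, was the gene with intervals apart (fold 1.16 to 1.42). In peptide hormone cells (35 and 23 cells) 0 of 9 passed as well (0.878% higher, 0.491% lower), and all 9 intervals overlapped. So few genes passed in these splits that the counts of 0 say nothing particular about the 9.

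The wider machinery was described with 5 gene lists, which include the 9 genes, and a comparator list of constitutive and endosomal SNARE traffic. In enterochromaffin against Lgr5 cells, 4 of 13 measured plasma membrane and granule SNAREs were higher (median log2 ratio 0.64), as were 9 of 20 chaperones, priming factors and clamps (0.91), 6 of 6 synaptotagmins (2.64), 10 of 19 secretory Rabs and effectors (1.67) and 20 of 20 granule cargo and membrane genes (4.39). The comparator had 7 of 24 higher with a median of 0.68. Over all genes 17.7% were higher and the median was 0.19. Of the 4 SNAREs, Snap25, Stx1a and Vamp2 are among the 9 genes, which were chosen with earlier results known, and Stx2 is the other. With the 9 genes left out, 40 of 69 measured genes of the 5 lists were higher (median 1.72). The broadly used SNAREs Vamp8 (log2 ratio 0.64), Vamp7 (0.26), Vamp3 (0.96) and Stx4a (0.14) did not pass, in contrast to Snap25 (4.44) and Stx1a (2.83). Among regulators, Baiap3, a relative of the Unc13 priming factors, had a log2 ratio of 4.18 and Stxbp5l, a tomosyn, 4.32, while Napa (0.78) and Stxbp2 (0.68) did not pass. Of the further synaptotagmins, Syt5 (3.07), Syt14 (2.55), Syt1 (2.24) and Syt11 (2.05) were higher, and of Rab effectors Rimbp2 (3.94), Rph3al (2.34) and Rims2 (81.3 against 13.6 CPM). The granule proteins Chga (4.81) and Chgb (4.80), the convertase Pcsk1 (4.43) and carboxypeptidase E, Cpe (4.62), were higher. In the comparator, Stx7 (1.17) and Stx17 (1.24) passed and Use1 (0.13) and Scfd1 (0.76) did not.

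In peptide hormone against Lgr5 cells, 3 of 12 SNAREs, 9 of 19 chaperones and priming factors, 4 of 4 synaptotagmins, 9 of 20 Rabs and effectors and 16 of 18 granule genes were higher, and 0 of 24 in the comparator. Over all genes 10.9% were higher. With the 9 genes left out, 33 of 64 measured genes of the 5 lists were higher. The 3 SNAREs were Snap25, Stx1a and Vamp2, all among the 9 genes. Baiap3 (3.66), Stxbp5l (3.11) and Rimbp2 (3.77) were high here too, as was Cpe (5.76), while Chga (-0.47) did not pass. The direction for Chga turned in single-rule cells, at 240.3 CPM (267 UMIs) in peptide hormone against 21.8 (283 UMIs) in Lgr5 cells. In Neurog3 against Lgr5 cells, 3 of 12, 8 of 19, 2 of 3, 9 of 19 and 17 of 18 of the same lists were higher, and 1 of 24 in the comparator. The SNAREs were the same 3, and 9.33% of all genes were higher. Without the 9 genes it was 31 of 62 over the 5 lists. In goblet against Lgr5 cells the counts were 1 of 12, 2 of 18, 3 of 4, 7 of 19 and 14 of 18, and 5 of 24 in the comparator. Over all genes 7.83% were higher. The SNARE was Snap25, and the synaptotagmins were Syt7 and Syt13, also among the 9 genes, and Syt14. Without the 9 genes it was 24 of 62 over the 5 lists. All list counts used whole classes and were not repeated in single-rule cells. The goblet class includes its 13 enterochromaffin and 6 peptide hormone cells, and single-rule goblet cells held 144 of its 1913 Chga UMIs. The 7 Rab genes and effectors of goblet cells were Rab3d, Rab27a, Rab27b, Sytl1, Sytl2, Sytl4 and Mlph, and none of the 9 genes was among them. Rab27a and Rab27b, which carry secretory granules to the plasma membrane, had log2 ratios of 3.78 and 2.79 in goblet cells, and Sytl2, a Rab27 effector, 5.44.

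Of the 65 other list genes measured between the 2 endocrine classes, 14 were higher in enterochromaffin (5.65% of all genes) and 3 in peptide hormone cells (2.38%). The former included Rims2 (log2 ratio 1.19), Stxbp5l (1.21) and Syt1, found with 28 UMIs in enterochromaffin and 0 in peptide hormone cells. The monoamine transporter Slc18a2, which loads serotonin into granules, was at 303 against 4.57 CPM. The 3 genes higher in peptide hormone cells were Rab37 (23.6 against 2.18 CPM), the granin Scg2 (1178 against 51.0 CPM) and Cpe (945 against 427 CPM).

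Over all 2335 cells, the genes most like each of the 9 were ranked by Pearson's r of logged scaled counts among 10845 genes found in at least 5% of cells; cells share 1 library and depth, so r is a description. Rab3c was closest to Gstt1 (0.88), Tac1 (0.87) and Chga (0.87). Cplx2 was closest to Neurod1 (0.82), Map1b (0.81) and Cpe (0.80), Snap25 to Pcsk1 (0.72), Tph1 (0.71) and Selenop (0.70), Syt13 to Map1b (0.71), Neurod1 (0.70) and Pam (0.70), and Cadps to Cpe (0.65), Aplp1 (0.64) and Neurod1 (0.63). The others had weaker neighbours: Syt7 with Cdkn1c (0.43), Isl1 (0.42) and 5330417C22Rik (0.41), Stx1a with Hmgn3 (0.42), Fev (0.39) and Pam (0.39), Vamp2 with Cpe (0.38), Pcsk1 (0.37) and Cacna2d1 (0.37), and Rab3a with Hmgn3 (0.26), Pnmal1 (0.25) and Fam183b (0.25). Within the 347 enterochromaffin cells, r over the 36 pairs of the 9 genes ran from -0.12 for Syt7 with Rab3c to 0.36 for Snap25 with Rab3c, and in the 75 peptide hormone cells the highest was Cplx2 with Cadps (0.51).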

How the data were processed

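Counts came from 1 droplet-based (10x Genomics) 3-prime library of 1 mouse by the labels. The submitters' processing notes name Cell Ranger and Seurat, without versions, and a human build, GRCh38, while the deposited gene identifiers are mouse; gene coordinates are therefore not given. The authors deposited raw counts of UMIs per gene and cell for 2335 kept cells (51238250 UMIs) and raw antibody counts for 4 hashtags; the filter behind them is not stated. UMIs were summed over the cells of each class and scaled to 1000000 UMIs (CPM), with Python 3.11.15, numpy 2.4.6, scipy 1.17.1 and pandas 2.3.3. Ratios of classes are log2 with a pseudocount of 1 CPM; folds carry exact conditional intervals without it. Doublets were not removed: Scrublet (scanpy 1.11.5) marked 2 of 2335 cells by its own threshold (0.0857%), too few to be relied on, so dropping the top 6% by score was tried instead. Alternatives were other pseudocounts, UMI minimums, class thresholds, denominators, hashtags, depths and cell origins; the split by Xist and Y-linked genes was chosen after seeing the data. The 9 genes and all lists were chosen with earlier results of these data known. Named genes are the 9, the 4 other genes of each list with most UMIs in endocrine cells, and the 3 most alike genes; Rab3b, Rab27a, Rab27b, Sytl1, Sytl2, Sytl4, Mlph, Cplx1, Slc18a2, Rab37 and Scg2 were named after their values were seen. On simulated data drawn over 31055 genes, 100% of 8-fold and 99 to 100% of 4-fold changes were recovered, and at most 0.0611% of unchanged genes were called. The simulation drew independent Poisson sums and altered only well-counted genes. It held no spread between cells and no cells shared by classes, so these rates do not carry over to sparse genes or to the real calls.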

Additional observations from a re-analysis of the deposited data

How the results depend on the processing

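No paired analysis was possible because the classes come from 1 library and share no replicate numbers. Over 14 alternatives the count of genes higher in enterochromaffin than in Lgr5 cells ran from 7 to 9, Rab3c and Snap25 were called there in all 14, and the Syt7 call toward peptide hormone cells held in all 14. With cells thinned to 2000 UMIs, which leaves few UMIs, 3 genes were higher in peptide hormone than in Lgr5 cells, 2 in Neurog3, 1 in goblet and 1 in enterochromaffin against peptide hormone cells, where Rab3c was the one called. In Y-bearing cells alone (5 Neurog3, 12 goblet and 26 Lgr5 cells) the counts were 3 for peptide hormone, 2 for Neurog3 and 0 for goblet cells, and 8 for enterochromaffin cells. In Xist-bearing cells alone they were 9 for enterochromaffin, 8 for peptide hormone, 9 for Neurog3 and 3 for goblet cells, the last being Syt7, Vamp2 and Syt13. For Neurog3 against Lgr5 cells, 2 genes remained without cells of several classes. For goblet against Lgr5 cells the count was 1 with a pseudocount of 10 CPM, 6 with the mean of each cell's CPM, 5 with looser class thresholds and 6 without the highest doublet scores; the cause was not tested. Of 45 log2 ratios of the 9 genes, 14 turned sign under at least 1 alternative: 3 of ratios called higher and 11 of ratios not called, among them Cplx2 (to -1.73), Rab3c (-0.26) and Cadps (-0.32) in goblet cells, Rab3c in peptide hormone cells (-1.13) and Rab3a in Neurog3 cells (-0.85), all against Lgr5 cells. For called ratios, list genes included, 7 values turned. Against Lgr5 cells, the log2 ratio of Stx1a in Neurog3 cells was -1.002 without cells of several classes (0 against 13 UMIs) and -1.09 in Y-bearing cells, that of Snap25 in Neurog3 cells -1.71 in Y-bearing cells, and that of Syt13 in goblet cells -0.0783 without cells of several classes. In goblet cells Syt14 gave -1.02 in cells of hashtags 1 and 2 and -1.71 in Y-bearing cells, and Pcsk1 -0.39 in the latter. Depth limits Stx1a and Rab3a most, with 12 and 14 UMIs in all Neurog3 cells.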

Other observations

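Spread between enterochromaffin cells was described with each cell thinned to 5000 UMIs (318 cells). The variance over the mean was 3.06 for Rab3c and 2.58 for Syt7, 1.68 for Cplx2, 1.47 for Snap25, 1.23 for Rab3a, 1.19 for Syt13, 1.07 for Cadps, 1.05 for Vamp2 and 0.989 for Stx1a. Counting alone gives a value near 1. At equal relative spread this value rises with the mean, which ran from 0.12 UMIs for Stx1a to 4.21 for Rab3c. It therefore does not rank the genes by relative spread. Syt7 reached 9 UMIs in 1 enterochromaffin cell (1052 CPM), although 17.0% of these cells held any.

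Markers of enteric neurons and glia, other cells that use this machinery, were scarce. Sox10, a glial factor, was at 0 in all 5 classes, and the summed level of a list of such genes was 12.2 CPM in enterochromaffin, 33.5 in peptide hormone, 21.5 in Neurog3, 6.03 in goblet and 4.29 in Lgr5 cells. Ret, at 13.7 CPM, and Uchl1, at 9.14 CPM, were the highest of that list in peptide hormone cells.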
